A study of Mus musculus with 8 samples.

Results

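The 39 genes described here are the cell cycle and DNA replication genes of the mouse paw, chosen by symbol from a list of proliferation markers, cyclins, mitotic kinases, spindle and kinetochore genes, replication genes and nucleotide synthesis genes. All 39 were among the 22609 gene symbols measured, and all 39 were among the 14790 genes with enough reads to test. Polyadenylated RNA from whole paw of C57BL/6J mice, an inbred strain, was sequenced in 4 female and 4 male libraries. Every mouse, female and male, is labelled as given 0.1 µg of prolactin (PRL), a pituitary hormone best known for lactation, by daily intraplantar injection over 12 days. PBS and single-injection arms of the treatment protocol were not analysed here, so no untreated level stands beside these values and nothing here measures a response to prolactin. No age is given in the labels, and the design text counts 4 males and 4 females without saying how animals map to libraries beyond that. The labels give no gene change, transgene or cell line.

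A dividing cell copies its DNA in S phase and separates the copies in mitosis. The MCM proteins form the ring-shaped helicase that opens DNA for copying, and the sliding clamp and the enzymes that make deoxynucleotides work beside it. Before mitosis, cyclins of the A and B type switch on Cdk1, after which kinases, motor proteins and kinetochore proteins build the spindle and attach chromosomes to it, and the anaphase-promoting complex then triggers separation. In mouse paw the basal layer of the epidermis is a main site of division, and cells of the hair follicle, sebaceous gland, blood and vessels can divide as well. The RNAs came from whole tissue, so fewer dividing cells and less RNA per dividing cell cannot be told apart.

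Markers of skin were abundant in all 8 libraries labelled as paw. Krt14, a keratin of basal epidermis, averaged 2120.3 ± 416 CPM (SD, n = 4) in females and 2281 ± 366 CPM (SD, n = 4) in males. Muscle content stood apart between libraries. The share of all counts taken by 20 genes of fast skeletal muscle was 2.63, 0.374, 0.00503 and 0.745% in female replicates 1 to 4, against 0.575, 3.29, 0.792 and 0.117% in male replicates 1 to 4. Female replicate 1 and male replicate 2 held the highest shares, and female replicate 3 held almost none. Counts in genes summed to between 16753528 and 24993744 in females and between 18183645 and 20416187 in males, and the 39 genes took 0.104 to 0.167% of them. The lowest count of any of the 39 in any library was 108 and the highest 5925, and counting error alone would give a coefficient of variation (CV, the SD over the mean) of at most 7.02%.

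The 39 genes were read in 2 blocks by their known role. The mitosis block held 28 genes, from the proliferation markers to the kinetochore, and the replication block held 11 genes, the helicase, the clamp and nucleotide synthesis. Genes of the first kind are known to carry in their promoters a cell cycle homology region (CHR, TTTGAA or TTCGAA) bound by the MuvB complex, often downstream of CCAAT boxes bound by NF-Y, whereas replication genes are known as targets of E2F factors. These motifs were searched on both strands in windows from 250 bases before to 50 bases from the start of each gene, taken from RefSeq promoters of build GRCm38.p6. For E2F the letters searched were TTCCCGC, with TTCGCGC as a variant, TTGCCGC as another variant, and finally TTGGCGC. A window was at hand for 33 of the 39 genes, 23 of mitosis and 10 of replication, and for 10409 of all tested genes. Foxm1, Tpx2, Aurkb, Ccna2, Kif20a and Mcm4 had no window. The sequences below are shown because they hold CHR or E2F letters, whose shares differed between the blocks. That of CCAAT alone did not. The sequences are of 3 mitosis genes with CHR and CCAAT, 2 helicase genes with E2F letters, and Mcm2, the replication gene with TTTGAA. They lie at chr7:135716330-135716629 (minus strand) for Mki67, chr9:70421505-70421804 (minus strand) for Ccnb2, chr4:118437294-118437593 (minus strand) for Cdc20, chr8:75109259-75109558 (plus strand) for Mcm5, chr1:128359656-128359955 (minus strand) for Mcm6 and chr6:88898731-88899030 (minus strand) for Mcm2. Each runs 5′ to 3′ on the strand of the gene, and capitals mark every match, those of the other strand included (so CCAAT on the other strand reads ATTGG here), with overlapping matches as 1 run.
Mki67: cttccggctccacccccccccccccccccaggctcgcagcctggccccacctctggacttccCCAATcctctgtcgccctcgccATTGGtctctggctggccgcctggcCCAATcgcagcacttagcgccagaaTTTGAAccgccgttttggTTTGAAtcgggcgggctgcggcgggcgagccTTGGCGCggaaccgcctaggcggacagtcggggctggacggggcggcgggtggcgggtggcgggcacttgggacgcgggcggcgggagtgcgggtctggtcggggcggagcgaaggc
Ccnb2: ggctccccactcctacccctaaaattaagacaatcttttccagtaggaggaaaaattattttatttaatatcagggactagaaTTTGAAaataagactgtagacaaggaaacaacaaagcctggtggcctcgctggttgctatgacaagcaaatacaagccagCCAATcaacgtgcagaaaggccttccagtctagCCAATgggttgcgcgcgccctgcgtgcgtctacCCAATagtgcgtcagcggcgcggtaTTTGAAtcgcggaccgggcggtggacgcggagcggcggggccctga
Cdc20: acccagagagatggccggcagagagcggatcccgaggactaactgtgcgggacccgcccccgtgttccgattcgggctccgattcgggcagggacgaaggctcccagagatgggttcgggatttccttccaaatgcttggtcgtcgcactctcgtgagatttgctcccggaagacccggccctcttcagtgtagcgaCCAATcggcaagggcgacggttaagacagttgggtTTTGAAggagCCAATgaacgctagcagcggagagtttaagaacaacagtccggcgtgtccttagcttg
Mcm5: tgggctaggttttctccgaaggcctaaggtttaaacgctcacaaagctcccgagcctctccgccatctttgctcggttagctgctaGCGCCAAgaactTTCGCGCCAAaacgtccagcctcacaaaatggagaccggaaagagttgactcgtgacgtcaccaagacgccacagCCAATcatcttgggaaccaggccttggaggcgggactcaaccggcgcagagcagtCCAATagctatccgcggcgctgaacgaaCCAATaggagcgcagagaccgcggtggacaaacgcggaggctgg
Mcm6: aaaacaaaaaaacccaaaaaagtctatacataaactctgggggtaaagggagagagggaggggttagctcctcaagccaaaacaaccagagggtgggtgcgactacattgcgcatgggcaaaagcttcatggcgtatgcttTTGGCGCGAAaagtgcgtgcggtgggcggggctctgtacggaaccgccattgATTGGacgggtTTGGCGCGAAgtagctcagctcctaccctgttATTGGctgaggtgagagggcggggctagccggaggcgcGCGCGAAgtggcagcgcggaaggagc
Mcm2: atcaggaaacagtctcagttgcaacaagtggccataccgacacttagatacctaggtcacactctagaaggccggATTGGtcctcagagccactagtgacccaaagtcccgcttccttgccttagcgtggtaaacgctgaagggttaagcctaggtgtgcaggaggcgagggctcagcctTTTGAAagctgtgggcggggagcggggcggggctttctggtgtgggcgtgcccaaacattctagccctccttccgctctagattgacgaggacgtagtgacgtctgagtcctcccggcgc

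The CHR letters TTTGAA or TTCGAA stood in 17 of 23 mitosis promoters (73.9%) and in 2 of 10 replication promoters (20%), against 13.9% of all tested genes. TTTGAA alone stood in 16 mitosis promoters (69.6%) and in 1 replication promoter, that of Mcm2, against 12.0% of all tested genes. CCAAT was as frequent in both blocks, with 18 of 23 mitosis promoters (78.3%) and 8 of 10 replication promoters (80.0%), against 38.0% of all tested genes. Both motifs together stood in 16 mitosis promoters (69.6%) and 2 replication promoters (20%), against 5.85% of all tested genes. E2F letters stood in 3 mitosis promoters (13.0%) and 6 replication promoters (60.0%), against 16.2% of all tested genes. Of the 20 E2F matches in these promoters, 3 overlapped a CCAAT match, 2 in Mcm7 and 1 in Ccnb1. Of the 33 promoters, those of Cdk1, Mki67 and Mcm7 held CHR, CCAAT and E2F letters together. A match is a description of the letters in the window, and binding was not measured.

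**Figure D1:**
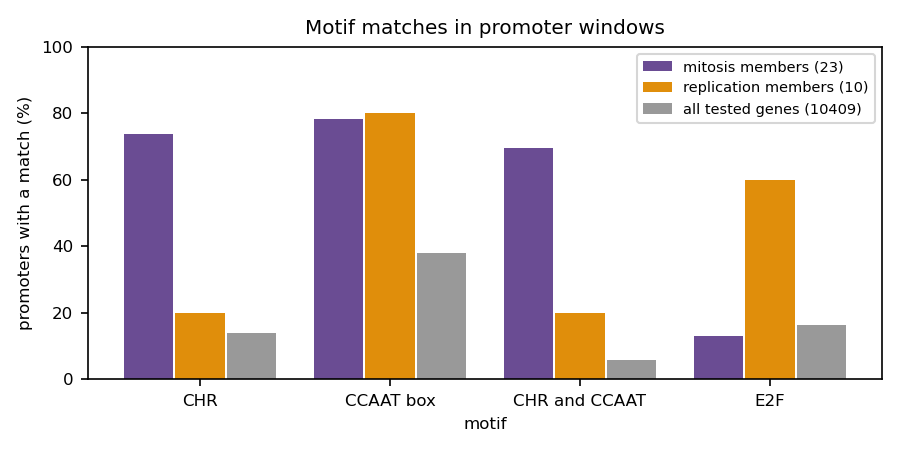
Share of promoter windows (%) with at least 1 match of each motif, for mitosis genes (23 promoters), replication genes (10 promoters) and all tested genes (10409 promoters). CHR letters stood in 73.9% of mitosis promoters and 20% of replication promoters, E2F letters in 13.0% and 60.0%.

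The mitosis block varied more between libraries than the replication block in both sexes. Levels are in CPM, reads of a gene scaled to a common library size by TMM. The summed CPM of the 28 mitosis genes was 825, 1274, 972 and 1015 in female replicates 1 to 4, against 1103, 763, 1049 and 1083 in male replicates 1 to 4. Female replicate 2 was the highest and male replicate 2 the lowest, 1.67 times apart, and the sexes overlapped. The summed CPM of the 11 replication genes was 358, 396, 377 and 414 in female replicates 1 to 4, against 430.4, 335, 401 and 378 in male replicates 1 to 4. Here male replicate 1 was the highest and male replicate 2 again the lowest, 1.29 times apart. The mitosis sum averaged 1022 ± 187 CPM in females and 999.5 ± 159 CPM in males, and the replication sum averaged 386 ± 24.3 CPM in females and 386 ± 40.3 CPM across males (SD over 4 libraries of each sex). In both blocks the means of the sexes lay closer together than 1 SD of either sex. The ratio of the mitosis sum to the replication sum was 2.30, 3.21, 2.58 and 2.45 in female replicates 1 to 4, against 2.56, 2.28, 2.61 and 2.86 in male replicates 1 to 4. Female replicate 2 had the highest ratio and male replicate 2 the lowest, the same libraries as at the ends of the mitosis sum. The mitosis sum is part of the ratio and varied more than the replication sum, so this is partly built in.

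**Figure D2:**
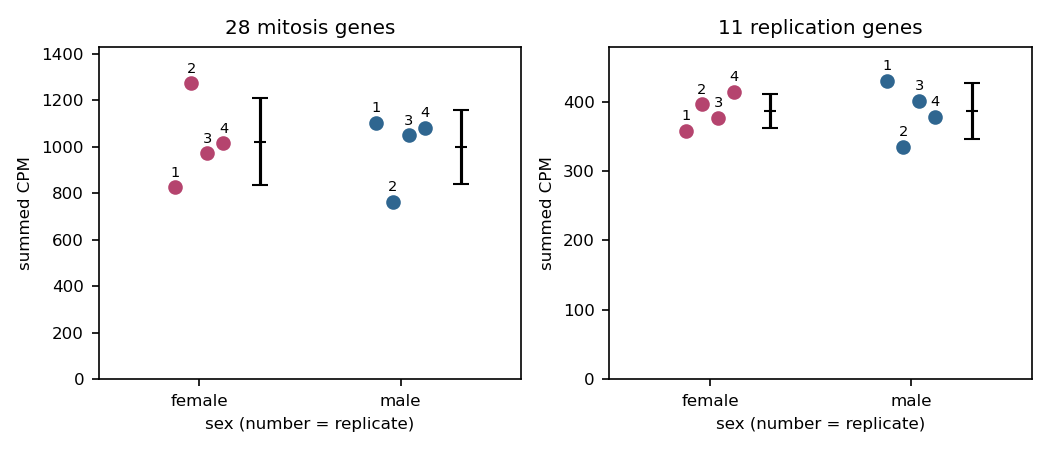
Summed CPM of the 28 mitosis genes (left) and the 11 replication genes (right) in each library, females left of males; numbers are replicate numbers, and bars show the mean ± SD (n = 4). Mitosis sums ran from 825 to 1274 CPM in females and from 763 to 1103 CPM in males, and the sexes overlapped in both blocks.

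Across single genes, 24 of the 28 mitosis genes were highest in female replicate 2, and 22 of the 28 were lowest in male replicate 2, with 4 more lowest in female replicate 1. Of the 11 replication genes, 2 were highest in female replicate 2 and 5 in male replicate 1, while 5 were lowest in male replicate 2 and 4 in female replicate 1. The median CV over the 8 libraries was 18.5% for mitosis genes and 10.3% for replication genes, against 15.6% over all tested genes. The highest library exceeded the lowest by a median of 1.70 times for mitosis genes and 1.33 times for replication genes.

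**Figure D3:**
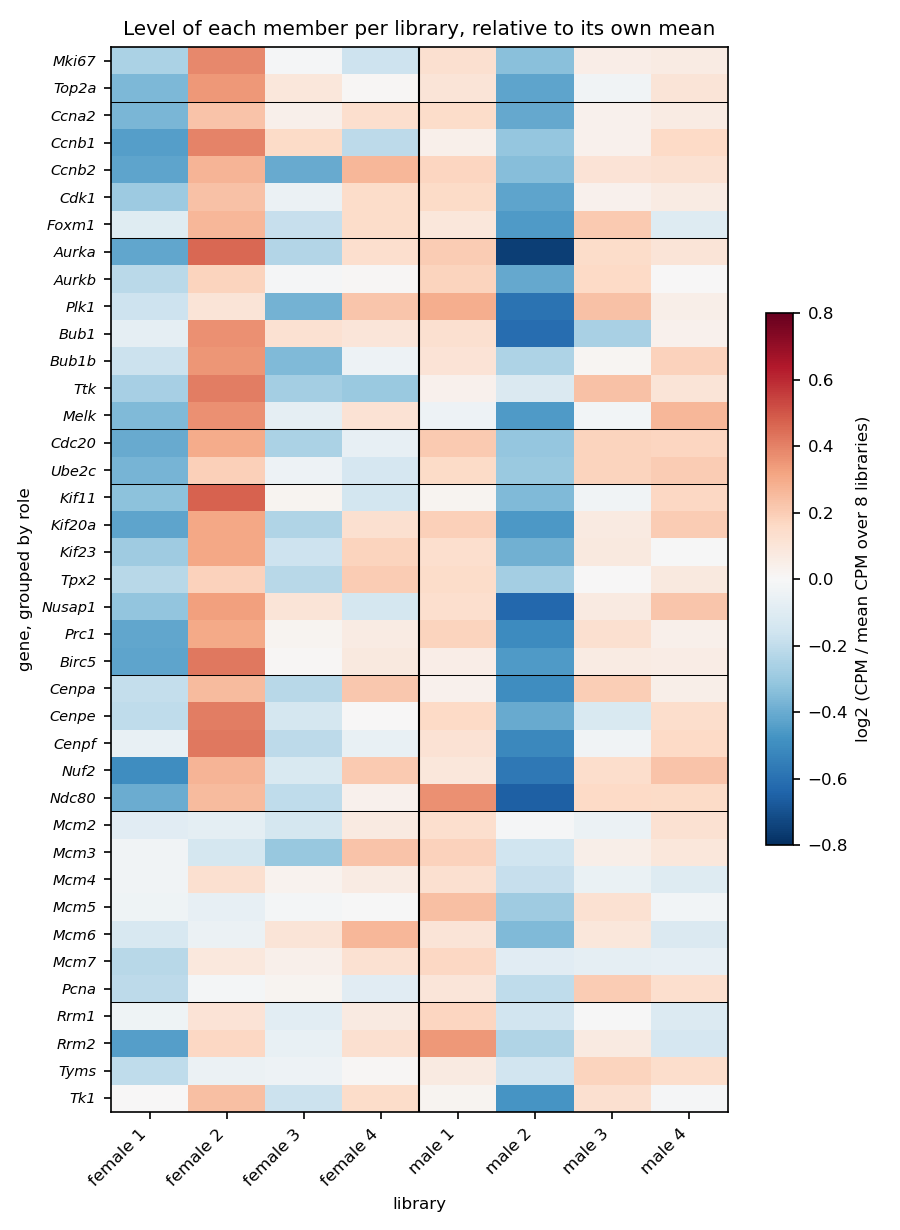
Level of each of the 39 genes (rows, grouped by role) in each library (columns, females left of males), as log2 of its CPM over its own mean CPM of the 8 libraries. Female replicate 2 is above the mean for most mitosis genes and male replicate 2 below it, while the replication genes at the foot are paler.

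Among the proliferation markers, Mki67 encodes Ki-67, a protein of the surface of mitotic chromosomes that is stained to find dividing cells. It stood at 176, 274, 207 and 187 CPM in female replicates 1 to 4, against 228, 166, 217 and 219 CPM in male replicates 1 to 4. Female replicate 2 was the highest, male replicate 2 and female replicate 1 were the lowest, and the sexes overlapped. Its mean was 211 ± 43.9 CPM (SD, n = 4) in females and 208 ± 28.2 CPM (SD, n = 4) in males. The log2 fold change, female over male, was 0.023 (SE 0.16), with a 95% interval of -0.34 to 0.39. Top2a encodes topoisomerase II alpha, which untangles DNA before chromosomes part. It stood at 93.97, 153, 128 and 122 CPM in female replicates 1 to 4, against 129, 90.1, 118 and 129 CPM in male replicates 1 to 4, the same libraries being highest and lowest as for Mki67. Its log2 fold change was 0.09 (SE 0.17), smaller than its SE.

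The 5 genes of the cyclin, CDK and transcription factor group moved together across libraries, with a median pairwise Pearson r of 0.79 over the 8 libraries. Cdk1, the kinase that drives entry into mitosis, stood at 37.2, 53.5, 44.1 and 50.3 CPM in female replicates 1 to 4, against 50.5, 33.96, 46.6 and 47.7 CPM in male replicates 1 to 4. Ccna2 encodes cyclin A2, a partner of Cdk1 and Cdk2, and stood at 44.9, 67.7, 59.5 and 63.4 CPM in female replicates 1 to 4, against 64.2, 43.5, 59.2 and 60.5 CPM in male replicates 1 to 4. In both, male replicate 2 was the lowest and female replicate 2 the highest. Ccnb1, cyclin B1, was low throughout, at 9.96, 17.8, 15.01 and 11.7 CPM in female replicates 1 to 4, against 13.9, 10.9, 13.9 and 15.1 CPM in male replicates 1 to 4, and here female replicate 1 was the lowest. Ccnb2, cyclin B2, stood at 17.4, 28.2, 17.7 and 28.1 CPM in female replicates 1 to 4, against 26.3, 18.4, 25.2 and 25.4 CPM in male replicates 1 to 4. Female replicates 1 and 3 were low for Ccnb2 while female replicates 2 and 4 were high, and 3 of the male libraries lay within 25.2 to 26.3 CPM. Foxm1 encodes a transcription factor of mitotic genes and ranged over 22.1 to 30.2 CPM across the females and 18.3 to 29.02 CPM across the males. In this group 4 of 5 log2 fold changes lay above 0, from -0.06 (Ccnb2) to 0.087 (Foxm1), and none exceeded its SE.

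The 7 mitotic kinases and checkpoint proteins held both the widest spread between libraries and the largest fold change of the 39 genes. Aurka encodes Aurora A, the kinase of the spindle poles, and stood at 7.31, 13.4, 8.30 and 10.7 CPM in female replicates 1 to 4, against 11.2, 5.78, 10.8 and 10.5 CPM in male replicates 1 to 4. Its highest library was 2.32 times its lowest, the widest range of the 39, and male replicate 2 was far below the other males. Bub1 encodes a kinase of the spindle checkpoint and stood at 12.8, 17.3, 14.7 and 14.4 CPM in female replicates 1 to 4, against 14.7, 8.82, 11.2 and 13.8 CPM in male replicates 1 to 4. Its female mean was the higher, but the sexes overlapped. Its values averaged 14.8 ± 1.88 CPM (SD, n = 4) in females and 12.1 ± 2.64 CPM (SD, n = 4) in males, and its log2 fold change of 0.29 (SE 0.18) was the largest of the 39 and did not pass (adjusted p = 0.877, edgeR quasi-likelihood test with Benjamini-Hochberg adjustment over all tested genes). Without male replicate 2, its lowest library, the highest log2 fold change of any of the 39 was 0.15. Ttk encodes Mps1, another checkpoint kinase, and stood at 12.6, 20.1, 12.5 and 12.3 CPM in female replicates 1 to 4, against 15.5, 13.96, 17.8 and 16.3 CPM in male replicates 1 to 4. Female replicate 2 was the highest library of all, while the other 3 females lay below every male. Plk1, Polo-like kinase 1, ranged over 8.30 to 12.6 CPM across the females and 7.17 to 13.2 CPM across the males, Aurkb, Aurora B of the chromosomal passenger complex, over 15.6 to 20.5 CPM across the females and 13.6 to 20.5 CPM across the males, Bub1b, the checkpoint protein BubR1, over 20.6 to 33.6 CPM across the females and 22.1 to 29.9 CPM across the males, and Melk, a kinase of dividing cells, over 10.9 to 17.9 CPM across the females and 10.2 to 16.7 CPM across the males. The sexes overlapped for each of them.

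Both genes that act with the anaphase-promoting complex had a lower mean in females, by less than their SE in each case. Cdc20, which activates the complex, stood at 16.1, 26.1, 17.9 and 20.3 CPM in female replicates 1 to 4, against 24.7, 17.2, 24.1 and 24.05 CPM in male replicates 1 to 4. Its log2 fold change of -0.16 (SE 0.18) was the lowest of the 39, with an adjusted p of 0.999 (edgeR), and 3 of 4 males lay between 24.05 and 24.7 CPM while male replicate 2 was low. Ube2c, the ubiquitin-conjugating enzyme of the complex, stood at 12.8, 18.9, 16.1 and 15.1 CPM in female replicates 1 to 4, against 18.5, 13.5, 18.8 and 19.1 CPM in male replicates 1 to 4. The gene Tnnc2, a troponin of fast muscle, shares exonic bases with Ube2c on the opposite strand in GENCODE M21 (build GRCm38). Tnnc2, named here after its values were seen, stood at 1291, 210.3, 1.94 and 383 CPM in female replicates 1 to 4, against 295, 1857, 424 and 66.8 CPM in male replicates 1 to 4. Female replicate 1 and male replicate 2, the libraries richest in Tnnc2, were the lowest in Ube2c. The same libraries were the lowest for most mitosis genes, male replicate 2 for 22 of 28 and female replicate 1 for 4. An effect of the shared bases on the counts of Ube2c was not tested.

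The 7 spindle, kinesin and midzone genes were the most alike of the role groups with more than 2 genes, with a median pairwise r of 0.90 over the 8 libraries. Kif11 encodes Eg5, the motor that pushes spindle poles apart, and stood at 41.1, 71.5, 52.4 and 46.6 CPM in female replicates 1 to 4, against 52.3, 40.4, 50.6 and 57.7 CPM in male replicates 1 to 4. Nusap1, a microtubule-bundling protein of the spindle, stood at 31.2, 48.8, 41.7 and 35.3 CPM in female replicates 1 to 4, against 42.6, 25.2, 40.9 and 45.3 CPM in male replicates 1 to 4. Birc5 encodes survivin, of the chromosomal passenger complex, and stood at 18.7, 33.6, 25.3 and 26.5 CPM in female replicates 1 to 4, against 26.1, 18.4, 26.3 and 26.2 CPM in male replicates 1 to 4. In all 3 female replicate 2 was the highest library and male replicate 2 the lowest. Prc1, which bundles midzone microtubules, ranged over 37.7 to 61.9 CPM across the females and 35.3 to 56.7 CPM across the males, and Tpx2, an activator of Aurora A, over 28.4 to 38.2 CPM across the females and 27.5 to 36.8 CPM across the males. The motors of the midzone Kif20a and Kif23 ranged over 22.1 to 36.6 CPM across the females and 21.6 to 34.1 CPM across the males, and over 24.1 to 36.4 CPM across the females and 22.6 to 32.3 CPM across the males. Log2 fold changes of the group lay between -0.053 (Kif20a) and 0.10 (Birc5), with 6 of 7 above 0 and none above its SE.

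The 5 centromere and kinetochore genes had a median pairwise r of 0.84 over the 8 libraries. Cenpf, a large protein of the outer kinetochore, stood at 39.5, 55.1, 35.7 and 39.6 CPM in female replicates 1 to 4, against 44.6, 28.8, 40.4 and 45.99 CPM in male replicates 1 to 4. Ndc80, which binds the kinetochore to microtubules, stood at 8.72, 13.7, 9.93 and 11.7 CPM in female replicates 1 to 4, against 14.8, 7.27, 12.8 and 12.7 CPM in male replicates 1 to 4. Male replicate 2 was the lowest library for both, and male replicate 1 was the highest for Ndc80, at 2.03 times the lowest. Cenpa, the histone variant that marks centromeres, ranged over 20.7 to 28.7 CPM across the females and 17.1 to 27.5 CPM across the males. Cenpe, a kinetochore motor, ranged over 19.3 to 29.6 CPM across the females and 16.8 to 24.9 CPM across the males, and Nuf2, the partner of Ndc80, over 9.43 to 16.1 CPM across the females and 8.93 to 15.6 CPM across the males. In this group 3 of 5 log2 fold changes lay above 0, and the sexes overlapped for all 5.

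For the 7 genes of the replication helicase and clamp the highest library was 1.21 to 1.54 times the lowest. Mcm2, a helicase subunit, stood at 25.6, 25.8, 24.7 and 28.6 CPM in female replicates 1 to 4, against 29.9, 27.01, 26.3 and 29.6 CPM in male replicates 1 to 4. Its highest library was 1.21 times its lowest, the narrowest range of the 39, and male replicate 2, low for most mitosis genes, was in the middle. Its log2 fold change was -0.11 (SE 0.083), with an adjusted p of 0.931 (edgeR). Mcm3 stood at 25.1, 23.2, 20.7 and 30.00 CPM in female replicates 1 to 4, against 29.2, 23.00, 26.5 and 27.3 CPM in male replicates 1 to 4, with female replicate 3 the lowest and female replicate 4 the highest. Mcm6 stood at 55.6, 58.7, 65.1 and 72.9 CPM in female replicates 1 to 4, against 65.2, 47.4, 64.5 and 55.9 CPM in male replicates 1 to 4, and male replicate 2 was the lowest. Pcna encodes the sliding clamp that holds DNA polymerase on its template, and stood at 33.2, 37.97, 38.98 and 36.02 CPM in female replicates 1 to 4, against 40.95, 33.3, 44.1 and 42.1 CPM in male replicates 1 to 4. For Pcna 3 of 4 males exceeded every female and male replicate 2 was near the lowest female. The log2 fold change of Pcna was -0.13 (SE 0.10), with an adjusted p of 0.934 (edgeR). Mcm4 ranged over 39.8 to 44.3 CPM across the females and 35.6 to 44.3 CPM across the males, Mcm5 over 28.7 to 30.04 CPM across the females and 24.7 to 35.5 CPM across the males and Mcm7 over 15.7 to 19.9 CPM across the females and 17.2 to 20.5 CPM across the males. In this group 3 of 7 log2 fold changes lay above 0.

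Of the 4 genes of nucleotide synthesis, Rrm1 and Rrm2 encode the large and small subunits of ribonucleotide reductase, which makes deoxynucleotides. Rrm1, the large subunit, stood at 80.5, 89.1, 78.04 and 86.96 CPM in female replicates 1 to 4, against 92.9, 74.4, 82.6 and 76.6 CPM in male replicates 1 to 4. Rrm2, the small subunit, made mainly in S phase, stood at 21.1, 32.1, 27.5 and 31.3 CPM in female replicates 1 to 4, against 36.4, 24.2, 30.1 and 26.1 CPM in male replicates 1 to 4. Across libraries the highest level of Rrm1 was 1.25 times its lowest and that of Rrm2 1.73 times. Male replicate 1 was the highest library for both. Tyms, thymidylate synthase, ranged over 14.96 to 17.3 CPM across the females and 15.5 to 19.5 CPM across the males. Tk1, the thymidine kinase of S phase, ranged over 15.4 to 20.4 CPM across the females and 12.5 to 18.9 CPM across the males. Log2 fold changes ran from -0.13 (Tyms) to 0.13 (Tk1).

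Between the sexes under prolactin, none of the 39 genes passed the test. The edgeR quasi-likelihood test (adjusted p under 0.05, adjusted over all tested genes) called 0 of the 39, where 14 of 14790 tested genes, 0.0947%, were called. At an unadjusted p under 0.05 it again called 0 of the 39, where 966 genes, 6.53%, were called, and the smallest unadjusted p of the 39 was 0.141. DESeq2 called 0 of the 39 at an adjusted p under 0.05, where it called 0.758% of tested genes, and 0 at an unadjusted p under 0.05, where it called 7.01%. For limma-voom the counts among the 39 were 0 where it called 0.108% of tested genes by adjusted p, and 0 where it called 6.57% by unadjusted p. The sexes overlapped in CPM for all 39, where 700 tested genes, 4.73%, did not overlap. With 14 calls among all genes, a count of 0 in 39 is near the background and says little about the 39 by itself. Of the log2 fold changes, 23 lay above 0 and 16 below, with a median of 0.027 against 0.010 over all tested genes. That direction rested on single libraries. Without male replicate 2 only 4 of 39 lay above 0 (median -0.09), without female replicate 2 only 7 (median -0.07), without male replicate 1 there were 30 (median 0.08), and without female replicate 1 there were 28 (median 0.12). Without both female replicate 1 and male replicate 2, the libraries richest in muscle, 18 of 39 lay above 0, with a median of -0.011.

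What the data leave room for is set by the intervals. The 95% intervals of the 39 log2 fold changes reached at most from -0.64 (Ndc80) to 0.69 (Bub1), so none reached a doubling or halving. The SE ran from 0.083 (Mcm2) to 0.26 (Aurka), with a median of 0.17 against 0.15 over all tested genes. Missing the threshold does not show that the levels of females and males are equal. Where nothing ties each library to its own animal, p-values measure only the spread between these libraries, which may be technical.

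**Figure D4:**
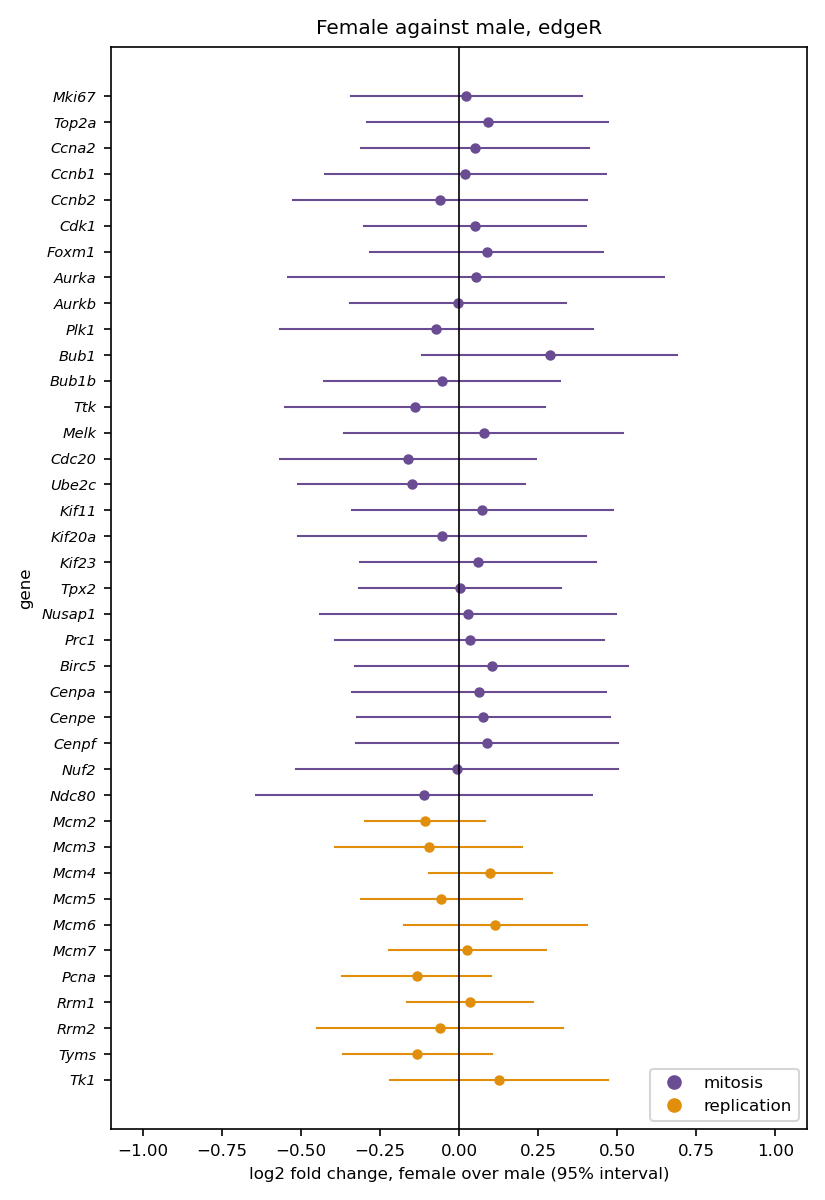
Log2 fold change, female over male, of each of the 39 genes with its 95% interval (edgeR, 4 female and 4 male libraries), mitosis genes in purple and replication genes in orange. All 39 intervals span 0, and the outermost bounds are -0.64 for Ndc80 and 0.69 for Bub1.

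Over the 8 libraries the mitosis genes varied together most closely, while replication genes were no more alike among themselves than with mitosis genes. For the 378 pairs within the mitosis block the median Pearson r of log2 CPM was 0.83, and 81.0% of pairs had an r of at least 0.7. For the 55 pairs within the replication block the median r was 0.50, with 16.4% of pairs at 0.7 or more, and for the 308 pairs between the blocks it was 0.59, with 25.0%. Over all pairs of tested genes the median r was -0.0015, and 7.69% of pairs reached 0.7. As deviations from the mean of each sex, the medians were 0.86 within mitosis, 0.60 within replication and 0.65 between them, where 10.6% of all pairs reached 0.7. These are descriptions over 8 libraries of 1 tissue that share its cell makeup, and no p is given.

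Much of this rested on the 2 libraries with the most muscle, which also had the lowest mitosis sums (825 and 763 CPM). Leaving out the low end of a range can itself lower r, so the 2 traits cannot be told apart here. Without female replicate 1 and male replicate 2 the median r was 0.64 within mitosis, 0.23 within replication and 0.13 between the blocks over the 6 remaining libraries, with 10.8% of all pairs of genes at 0.7 or more. The share of pairs at 0.7 or more was then 39.4% within mitosis, 14.5% within replication and 6.17% between the blocks. With the fast muscle score (the mean log2 CPM of the 20 muscle genes) regressed out of each gene over all 8 libraries, the medians were 0.87, 0.56 and 0.59 instead. With the mean log2 CPM of 12 basal keratinocyte genes subtracted from each library they were 0.74, 0.63 and 0.38. There, and over the 6 libraries, replication genes had a higher median r among themselves than with mitosis genes. Over all 8 libraries that order was the reverse. The part of tissue makeup in the co-variation was not tested.

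Single genes were paired with Mki67 by exact permutation over the 8 libraries (two-sided, 6 pairs, Benjamini-Hochberg over the 6, which include Krt5 and Krt14). Top2a rose and fell with Mki67, with a Pearson r of 0.92 (p = 0.00136, adjusted p = 0.00818, exact permutation) and a Spearman rho of 0.93 (p = 0.00223, adjusted p = 0.0134, exact permutation). Without female replicate 2 and male replicate 2, the libraries farthest from the median of Mki67, r was 0.79 over 6 libraries. Mcm2 gave a Pearson r of 0.046 (p = 0.913, adjusted p = 0.913, exact permutation) and a rho of 0.26 (p = 0.536, adjusted p = 0.644, exact permutation), with r at 0.43 without those libraries. Acta1, the actin of skeletal muscle, gave an r of -0.34 (p = 0.409, adjusted p = 0.602, exact permutation) and a rho of -0.64 (p = 0.0962, adjusted p = 0.144, exact permutation), with r at -0.31 without them. Ptprc, the leukocyte antigen CD45, gave an r of -0.28 (p = 0.502, adjusted p = 0.602, exact permutation) and a rho of -0.14 (p = 0.752, adjusted p = 0.752, exact permutation), with r at -0.28 without them. Of these 4 pairs that of Top2a passed, and the pairs of Krt5 and Krt14 passed as well, as given next. The difference between the r of Top2a and that of Mcm2 was not tested.

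The basal keratins fell into separate sets of libraries. Krt5, the partner of Krt14 in basal epidermis, stood at 1478, 2049, 1931 and 1387 CPM in female replicates 1 to 4, against 1937, 1493, 1926 and 1983 CPM in male replicates 1 to 4. Female replicates 1 and 4 and male replicate 2 lay at 1387 to 1493 CPM and the other 5 at 1926 to 2049 CPM. Krt14 split the same way. The same 3 libraries held the lowest Mki67, at 166 to 187 CPM, against 207 to 274 CPM in the other 5. The mitosis block as a whole did not split this way. Female replicate 4, the lowest in Krt5, had a summed 1015 CPM of the 28 mitosis genes, 100.5% of the mean of the 8 libraries. Over all 8 libraries both keratins were higher where Mki67 was higher, and both pairs passed the adjustment over the 6 (adjusted p = 0.00992 for Krt5 and for Krt14 by Pearson r, and 0.0308 for each by Spearman rho, exact permutation). Because the libraries fell into sets, with fewer than 6 in either, no size of r over all 8 is given, and the relation within a set was not tested. The permutation treats the 8 libraries as interchangeable, which libraries that fall into sets may not be. Both keratins split the same way, so their passes are not independent of each other. Among all pairs of tested genes, 7.69% had an r of at least 0.7 over these libraries.

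**Figure D5:**
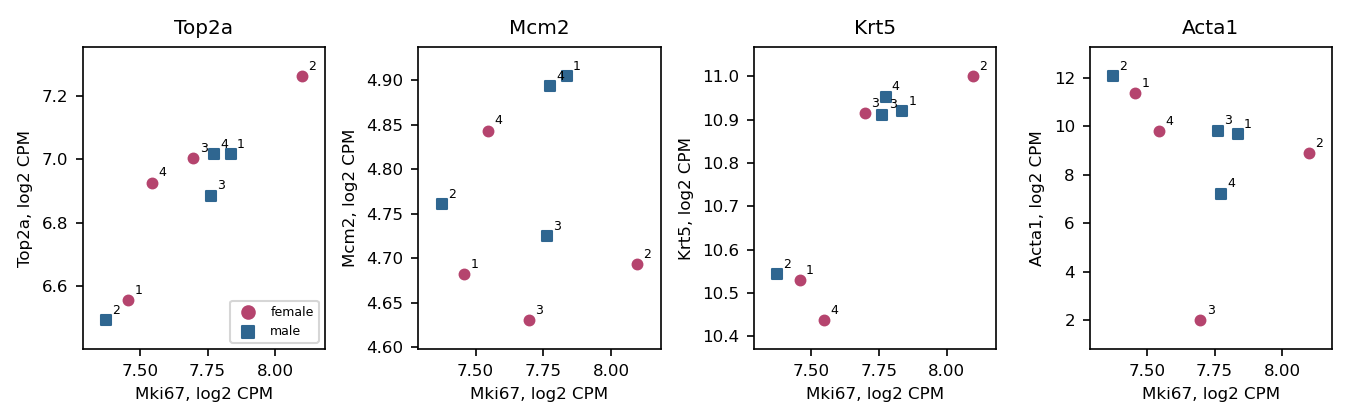
Log2 CPM of Top2a, Mcm2, Krt5 and Acta1 (vertical axes) against that of Mki67 (horizontal axes) in the 8 libraries, females as circles and males as squares, numbered by replicate. Top2a rises along Mki67 (r of 0.92), Mcm2 does not (r of 0.046), and Acta1 is scattered. Krt5 forms 2 sets of libraries, and the 5 with more Krt5 also have more Mki67.

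The rest of each pathway was read from lists of known genes that hold none of the 39. Of 79 tested genes of mitosis, 55 log2 fold changes lay above 0 and 24 below, 0 passed in edgeR in either direction, 0 had an unadjusted p under 0.05, and the median was 0.083. The nearest to passing were Ncapg2, a condensin II subunit, with a log2 fold change of 0.25 (SE 0.12), Troap with 0.47 (SE 0.26), Kntc1 with 0.22 (SE 0.13) and Mxd3 with -0.37 (SE 0.24), at adjusted p-values from 0.808 to 0.899 (edgeR). Of 54 tested genes of replication, 29 lay above 0 and 25 below, 0 passed, 0 had an unadjusted p under 0.05, and the median was 0.0056. The nearest, with their log2 fold changes, were Rfc3, of the clamp loader, with 0.23 (SE 0.11), Cdt1, which loads the helicase, with 0.24 (SE 0.13), Ccne2, a cyclin E, with -0.27 (SE 0.16), and Dtl with 0.18 (SE 0.13), at adjusted p-values from 0.794 to 0.915 (edgeR). DESeq2 and limma-voom called 0 of these genes too. In edgeR 6.53% of all tested genes had an unadjusted p under 0.05.

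A list of genes that start the cycle or hold it in check came next. Of its 41 tested genes 26 lay above 0 and 15 below, with a median log2 fold change of 0.028. In edgeR 0 passed and 3 of the 41 had an unadjusted p under 0.05. Of all tested genes 6.53% did, a share near that of the list. Wee1, the kinase that holds Cdk1 inactive, stood at 24.7, 27.7, 29.1 and 25.8 CPM in female replicates 1 to 4, against 19.8, 16.1, 24.3 and 19.1 CPM in male replicates 1 to 4. Wee1 had the smallest p of the list, and every female exceeded every male. The sexes did not overlap for 4.73% of all tested genes. The log2 fold change of Wee1 was 0.44 (SE 0.13) with an adjusted p of 0.594 (edgeR). Cdkn1a, the inhibitor p21, stood at 266, 326, 311 and 240.4 CPM in female replicates 1 to 4, against 353, 315, 358 and 355 CPM in male replicates 1 to 4. Male replicates 1, 3 and 4 were the highest, and the sexes overlapped. Its log2 fold change was -0.27 (SE 0.11) with an adjusted p of 0.749 (edgeR). E2f3, an E2F factor, ranged over 19.7 to 22.7 CPM across the females and 22.3 to 24.9 CPM across the males, with a log2 fold change of -0.21 (SE 0.083) and an adjusted p of 0.728 (edgeR). Mycn was scarce, at 2.93 ± 0.988 CPM (SD, n = 4) in females and 1.99 ± 0.401 CPM (SD, n = 4) in males. Ccnd1, cyclin D1 of early G1, averaged 147 ± 12.3 CPM (SD, n = 4) in females and 145 ± 20.98 CPM (SD, n = 4) in males.

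Likeness to the 39 was measured as Pearson r over the 8 libraries with their mean z-score of log2 CPM, a description with no p. Among 13227 other genes with a mean of at least 2 CPM, 737 (5.57%) had an r of at least 0.7. Of the mitosis list 61 of 79 genes (77.2%) did, of the replication list 21 of 54 (38.9%), and of the control list 5 of 41 (12.2%). Those 5 were Cdk4, Btg1, Ccng2, Mybl2 and Lin37, and 3 control genes, Rbl2, E2f6 and Ccng1, had an r of -0.7 or lower, as did 6.68% of the 13227 genes; these 8 names were taken after their values were seen. The 12 most alike were Prelid1 (r of 0.99), Prr11, Dlgap5, Edem1, Bfsp1, Stk38, Rad54b, Saal1, Spc25, Fanca, Vti1a and Nt5c (r of 0.96). Prelid1, a mitochondrial lipid transfer protein, stood at 96.9, 129, 109 and 117 CPM in female replicates 1 to 4, against 126, 93.05, 121 and 119 CPM in male replicates 1 to 4. The 6 least alike were Plin4 (r of -0.97), Fbxl16, Ccdc69, Dld, Fhod3 and Tef (r of -0.94). Plin4, a coat protein of fat droplets, stood at 69.05, 29.7, 45.2 and 40.99 CPM in female replicates 1 to 4, against 30.4, 84.7, 44.9 and 43.1 CPM in male replicates 1 to 4. Male replicate 2 and female replicate 1 were the highest for Plin4 and female replicate 2 the lowest, the reverse of most mitosis genes.

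Cell types that could hold dividing cells were read by marker lists beside these values. The 12 basal keratinocyte genes summed to 4925, 6453, 6063 and 4549 CPM in female replicates 1 to 4, against 5919, 4726, 5815 and 5996 CPM in male replicates 1 to 4. Female replicate 2 was the highest here too, while female replicate 4 and male replicate 2 were the lowest. Of these 12 genes, 1 (8.33%) had an r of at least 0.7 with the mean z-score of the 39, and 1 an r of -0.7 or lower. Among the 13227 other genes 5.57% and 6.68% did. Of 23 tested hair follicle genes, 22 had a log2 fold change above 0, the summed level running from 664 to 1769 CPM in females and from 435 to 1106 CPM in males, with 0 called in edgeR. Female replicate 3 held the 1769 CPM, and the other females lay between 664 and 853 CPM, within the range of the males. The 1 follicle gene with an unadjusted p under 0.05 was Ovol1, where 6.53% of all tested genes had such a p. Ovol1 was also the 1 gene below 0, with a log2 fold change of -0.59 (SE 0.24) and an adjusted p of 0.749 (edgeR). Macrophage genes summed to between 1543 and 3863 CPM in females and between 2045 and 2612 CPM in males. Lymphocyte genes summed to at most 15.9 CPM in females and 10.1 CPM in males. Granulocyte precursor genes summed to between 14.96 and 31.7 CPM in females and between 9.30 and 63.9 CPM in males, and Elane, Ngp and Ms4a3 were at 0 in all 8 libraries. The haemoglobin genes Hbb-b1, Hbb-b2, Hba-a1 and Hba-a2 of red cell precursors were listed at 0 in all 8. Reads aligned to more than 1 place, 45.2 to 48.7% of all deposited counts, are in no gene, so 0 does not show absence. The 3 tested genes of that list summed to 163 to 225 CPM in females and 176 to 264 CPM in males. Most of that was Tfrc, with means of 178 CPM in females and 203 CPM in males. The part of these cell types in the levels of the 39 genes was not tested.

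Between genes, levels were compared per kilobase of the longest coding transcript in GENCODE M21 (mean ± SD in CPM per kb over the 8 libraries of both sexes). Pcna led with 25.2 ± 2.63, followed by Top2a with 23.1 ± 3.92, Mki67 with 20.8 ± 3.40 and Rrm1 with 20.7 ± 1.63. The means of neighbours differed by less than their SD over the libraries, which the genes partly share. Library by library, Top2a exceeded Mki67 in every one, while Pcna and Top2a changed order between libraries, as did Mki67 and Rrm1. The lowest were Bub1 with 3.93 ± 0.747, Cenpf with 3.70 ± 0.694 and Cenpe with 2.81 ± 0.505. Within the MCM helicase Mcm6 (13.9 ± 1.80) and Mcm4 (11.3 ± 0.866) were the most abundant per kb, Mcm5 (8.89 ± 0.920), Mcm3 (8.45 ± 1.06) and Mcm2 (8.06 ± 0.580) each differed from the next of these 3 by less than 1 SD, and Mcm7 (6.17 ± 0.547) was the lowest. Transcripts in the paw may be shorter or longer than the longest one, which shifts such levels.

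Some of these counts are uncertain. In GENCODE M21, 9 of the 39 genes share exonic bases with a gene on the opposite strand, namely Ccna2, Plk1, Cdc20, Ube2c, Kif20a, Nusap1, Prc1, Mcm7 and Tk1, and Foxm1 does so with a gene on its own strand. The library kit keeps strand, but whether the counting used it is not given in the sources used here. Ccnb1, Ccnb2, Pcna and Tyms have pseudogenes named after them in RefSeq, and reads shared by such copies may be missing from the counts.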

How the data were processed

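The authors deposited whole-number read counts per gene symbol for each library, with no normalization. Per the labels' protocols, stranded poly(A) libraries were sequenced as 50 bp single-end reads, and per the submitters' processing notes bcl2fastq, TopHat2, HTSeq and build mm9 were used. The sources used here give neither tool versions nor the annotation or strand setting. Lines that name no gene were left out of library sizes; reads in no feature were 18.0 to 21.1% of reads in genes, no feature or ambiguous.

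Counts were tested with edgeR 4.0.16 in R 4.3.3 (filterByExpr, TMM, robust quasi-likelihood test, sex as the sole term, Benjamini-Hochberg over 14790 genes). Log2 CPM used a prior count of 2. SEs derive from the test. DESeq2 1.42.0, limma-voom 3.58.1, other scalings and filters, a replicate block and leaving out libraries were alternatives. The fit was tested on simulated data. Same-sex libraries differed by a chi-square of 13.2 or more per degree of freedom.

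The genes, blocks and lists were chosen with earlier results of these data known. Named are the 39 genes, the up to 4 genes of smallest p in each pathway list, 6 fixed genes (Ccnd1, Cdkn1a, Krt5, Krt14, Acta1, Ptprc) and the genes most and least alike. Of the cell type lists, fast muscle is given as a share of counts. Basal keratinocytes, hair follicle, macrophages, lymphocytes, granulocyte precursors and red cell precursors are given as sums. Also named from these lists are Tnnc2, Ovol1, Tfrc, Elane, Ngp, Ms4a3 and the haemoglobin genes. RefSeq and GENCODE supplied promoters and transcript lengths of GRCm38, not mm9, so no coordinate was joined to counts.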

Additional observations from a re-analysis of the deposited data

Results flagged for a closer look

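Of 106 groups of 4 libraries examined (each of the 39 genes, role and block scores and list scores, in each sex), 15 held a library far from the other 3, by the gap to its nearest neighbour over the whole range (Dixon's 95% criterion). Chance gives about 1 in 20 such groups, and scores share their genes, so the flags are not independent.

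Male replicate 2 stood below the other males in 13 of the 15. In log2 CPM it was at 7.38 for Mki67 (others 7.76 to 7.84), 4.21 for Ccnb2 (others 4.66 to 4.72), 2.55 for Aurka (others 3.40 to 3.497), 4.11 for Cdc20 (others 4.59 to 4.63), 3.76 for Ube2c (others 4.21 to 4.26) and 4.21 for Birc5 (others 4.71 to 4.72). As mean log2 CPM it was at 4.48 for the cyclin, CDK and transcription factor group (others 4.93 to 4.99), 3.43 for the mitotic kinases (others 3.95 to 4.00), 3.94 for the anaphase-promoting complex (others 4.42 to 4.43), 4.73 for the spindle, kinesin and midzone group (others 5.22 to 5.28), 3.82 for the centromere and kinetochore group (others 4.41 to 4.50), 4.30 for the mitosis block (others 4.80 to 4.86) and 4.42 for all 39 genes (others 4.86 to 4.93). Male replicate 2 also held the largest share of fast muscle counts, 3.29%, against 0.117 to 0.792% in the other males. The part of muscle content in its low levels was not tested.

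The other 2 flags were of single genes. Ttk in female replicate 2 was at 4.34 log2 CPM, above 3.64 to 3.67 in the other females. Mcm7 in male replicate 1 was at 4.36 log2 CPM, above 4.11 to 4.13 in the other males.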

How the results depend on the processing

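Under 21 alternatives 0 of the 39 genes were called, and the median of their log2 fold changes ran from -0.089 to 0.117. Among all genes 14 were called, 6 higher and 8 lower in females. DESeq2 called 112 (57 higher, 55 lower), the replicate block and leaving out the 2 libraries with the most muscle each called 7 (2 higher, 5 lower), limma with library weights called 10 higher in females, and leaving out 1 library gave 8 to 16 calls (2 to 7 higher, 6 to 10 lower); the cause was not tested. Replicate numbers did not pair the sexes: correlations of their deviations were -0.31, -0.17, -0.091 and -0.27, and 0 of 4 females correlated best with their own number. With the block the median log2 fold change of the 39 was 0.025.

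The median pairwise r moved beyond its jackknife spread over libraries only without the 2 muscle-rich libraries (0.44 over all pairs, 0.64 within mitosis, 0.23 within replication, 0.13 between blocks) and, between blocks, with the basal keratinocyte score subtracted (0.38). The 2 muscle-rich libraries also had the lowest mitosis sums. The ratio of highest to lowest library was 1.76 (mitosis) and 1.37 (replication) with upper quartile scaling and 1.75 and 1.35 with total counts, female replicate 2 and male replicate 2 staying at the ends of the mitosis sum. None of the 39 was called in any setting, so there was no called direction that could turn. The median of the 39 lay below 0 in some alternatives and above it in others. Depth limits scarce genes most: the mean count was at least 203 per library. The alternatives that leave out both muscle-rich libraries or subtract the keratinocyte score were chosen after seeing the data. So were those that regress out the muscle score or remove muscle genes before scaling.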
